A study of Mus musculus with 6 samples.

Results

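Of the 23314 genes in a table of transcript levels from mouse quadriceps, 47 encode the proteasome or factors that build and activate it. They were chosen by name: symbols of Psm, a letter from a to g and a number, pseudogenes left out, averaging 1 FPKM or more across the 6 libraries. FPKM corrects a gene's fragments for transcript length and library size, so levels of different genes can be compared. The name pattern held 49 genes, and 2 fell below the limit. Psmc3ip, a partner of meiotic recombinases, lay just outside at a mean of 0.902 FPKM, and Psmb9 lay just inside at 1.92 FPKM. Psma8, the alpha subunit of the testis proteasome, had a mean of 0.0277 FPKM.

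The libraries came from 2 genotypes of 2-month-old mice, with 3 libraries each. The control, MyoCre (Myogenin-Cre/+), expresses Cre recombinase from Myogenin, which differentiating muscle cells turn on. K15SKO (Myogenin-Cre/+;K15F/F) adds floxed Klf15, a zinc-finger transcription factor, to the same Cre, so that the deletion is aimed at muscle cells while other cells of the tissue keep the gene. Floxed mice without Cre were not analysed here. The labels do not say whether the libraries of a group are separate animals, so p-values measure only the spread between these samples; the design text speaks of n = 4. Values below follow the order of libraries 1, 2 and 3 of each group.

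The proteasome is the large protease that degrades proteins tagged with ubiquitin. Its core is a barrel of alpha and beta rings with the proteolytic sites inside, and a cap of ATPases and non-ATPases binds, unfolds and feeds the substrate. Interferon can replace the catalytic subunits by inducible ones, which makes the immunoproteasome, and in wasting muscle the proteasome breaks down contractile proteins.

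Klf15 read 35.2, 28.4 and 30.5 FPKM across MyoCre and 2.22, 21.7 and 5.32 FPKM across K15SKO (log2 difference −2.06, SE 0.66, limma adjusted p = 0.273). K15SKO 2 thus held more of the transcript of the targeted gene than K15SKO 1 and 3. Whether it came from muscle cells or from other cells in that library cannot be told apart. Depth relative to MyoCre 1, read from the steps between low values, ran from 0.78 to 1.57. Muscle fibre markers were present in every library, at a summed 41244 to 48734 FPKM in MyoCre and 30424, 30962 and 48940.4 FPKM in K15SKO. Of the 12 markers, 10 had a negative difference and 2 a positive one, so the sum does not stand for each gene. Des, named after its values were seen, read 1191, 1005 and 1184 FPKM across MyoCre. It read 2376, 2018 and 1437 FPKM across K15SKO (log2 difference 0.76, SE 0.21, limma adjusted p = 0.272). Liver markers, which a thigh muscle should lack, were present in all 3 K15SKO libraries: without Cyp2e1, which made up most of the MyoCre sums, 11 of them summed to 0.887 to 4.38 FPKM in MyoCre and to 71.2, 5851 and 12.5 FPKM in K15SKO. Of the 12 liver markers, 10 were higher in K15SKO without overlap, where 13.4% of all genes were. For Fga and Fgb this rested on values near 0. They read 0.194 and 0.069 FPKM in K15SKO 3, and 0.173 and 0.041 FPKM in MyoCre 1. The K15SKO libraries differed among themselves. Over all genes tested, the log2 values of K15SKO 2 lay farthest from the other libraries, with correlations of 0.870 to 0.880 with MyoCre, 0.915 with K15SKO 1 and 0.880 with K15SKO 3. K15SKO 3 correlated at 0.968 to 0.975 with MyoCre and at 0.942 with K15SKO 1. The counts of genes called are therefore given also without each K15SKO library.

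Setting K15SKO against MyoCre is meant to ask what loss of Klf15 in muscle does to transcript levels. Liver markers differed between the same groups, so the deletion and other tissue in the libraries cannot be told apart in this contrast. Proteasome transcripts stood higher in K15SKO 1 and 2 and close to the control level in K15SKO 3. Summed over the 47 genes, MyoCre gave 3175, 3163 and 3444 FPKM and K15SKO 4243, 4043 and 3402 FPKM. Relative to the MyoCre mean, the median gene of the 47 stood at 0.37, 0.34 and 0.07 log2 units in K15SKO, while the MyoCre libraries lay between −0.05 and 0.06. Over all 11607 genes tested the K15SKO medians were −0.04, −0.06 and 0.03. The proteasome median of K15SKO 3 thus barely passed the highest MyoCre library.

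No proteasome gene passed limma's test on log2(FPKM + 1) with Benjamini-Hochberg adjustment over all genes. An adjusted p under 0.05 was reached by 0 of 47, where 0.0172% of all genes were called higher, 0.0345% lower and 0.0517% in either direction; the adjusted p of the 47 ran from 0.272 to 0.941. At an unadjusted p under 0.05, 13 of the 47 (27.7%) were higher in K15SKO, where 8.43% of all genes were, and 1 was lower, where 8.12% were. The values of the groups did not overlap for 17 higher genes (36.2%), where 13.4% of all genes did not, and for 1 lower gene, where 11.3% did not. The difference was positive for 43 genes and negative for 4, with a median of 0.27 on the log2 scale against −0.02 over all genes tested. After median-of-ratios rescaling these medians were 0.300 and 0.01, and after quantile normalization 0.24 and −0.05, where Psma1, Psma5, Psmb2 and Psmc2 turned negative too (−0.026 to −0.010).

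By library, 40 of the 47 genes stood above all 3 MyoCre values in K15SKO 1, 36 in K15SKO 2 and 18 in K15SKO 3. Among all genes tested these shares were 37.2%, 33.4% and 36.1%. For 36 genes (76.6%) both K15SKO 1 and 2 lay above every MyoCre library, where 26.7% of all genes did. For 19 of these 36 (52.8%) K15SKO 3 did not, close to the 50.1% among all such genes. K15SKO 3 was the lowest of its group for 39 of the 47 and the highest for 6, where it was the lowest for 33.2% of all genes and the highest for 48.5%. The heat map of the genes by library shows this split within the group.

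**Figure D1:**
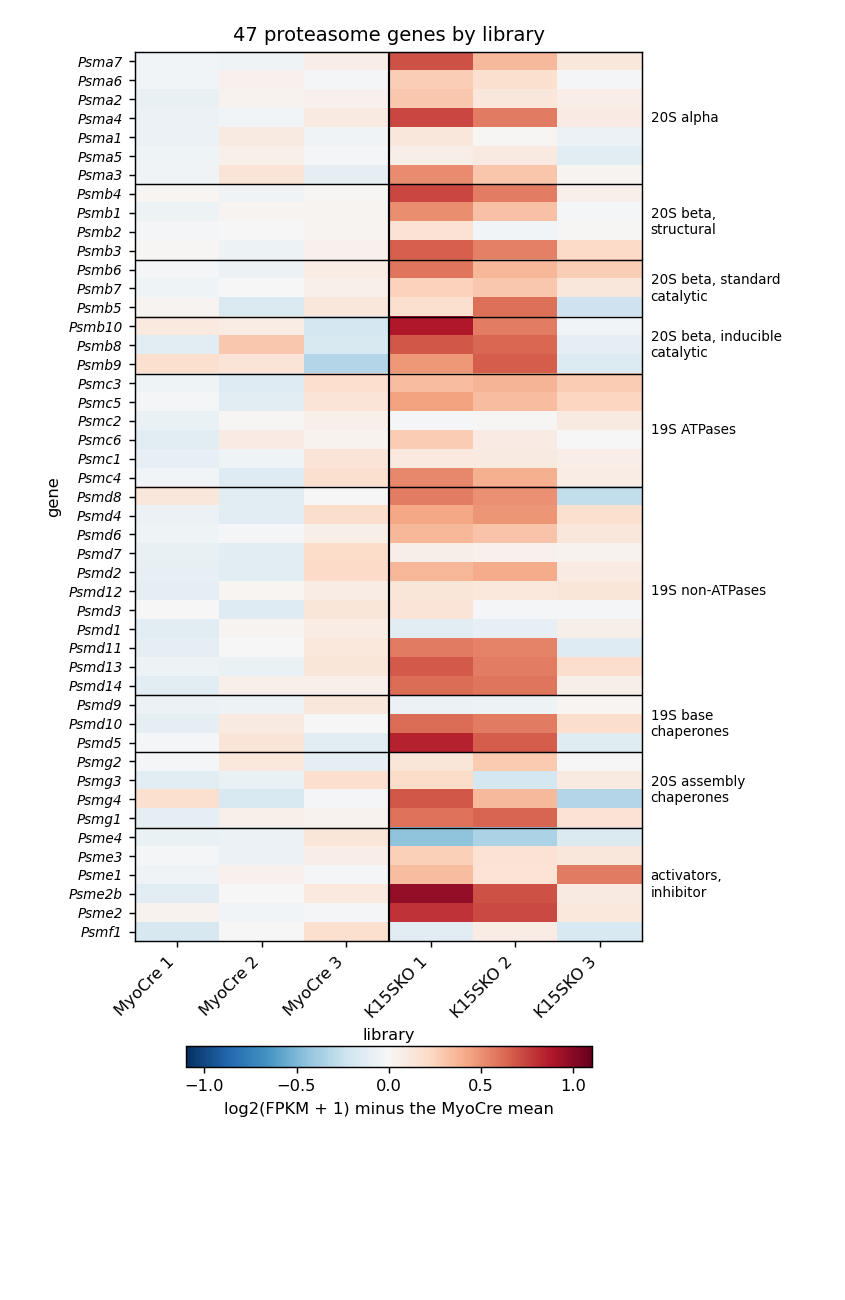
Heat map of 47 proteasome genes (ordered by role and level) in 6 libraries, coloured by log2(FPKM + 1) minus the mean of the MyoCre libraries. K15SKO 1 and 2 are red for most genes, K15SKO 3 is pale for most, and Psme4 is blue in all 3 K15SKO libraries.

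Without K15SKO 3, limma called 20 of the 47 genes, 19 higher and 1 lower, where 10.8% of all genes were called higher and 12.8% lower; the labels give no ground to leave that library out. Array weights gave K15SKO 3 a weight of 0.2 and the other libraries 0.596 to 2.43. With them, 17 genes were called higher and 0 lower, where 10.7% and 9.94% of all genes were, and 1 was lower at an unadjusted p under 0.05. Without K15SKO 2, the library with the most liver transcripts, limma called 0 of 47, where 0.0345% of all genes were called. At an unadjusted p under 0.05, 3 (6.38%) were then higher, near the 6.16% of all genes, and the median difference was 0.22. Without K15SKO 1, limma likewise called 0 of 47, 3 (6.38%) were higher at an unadjusted p under 0.05, where 4.36% of all genes were, and the median was 0.20.

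**Figure D2:**
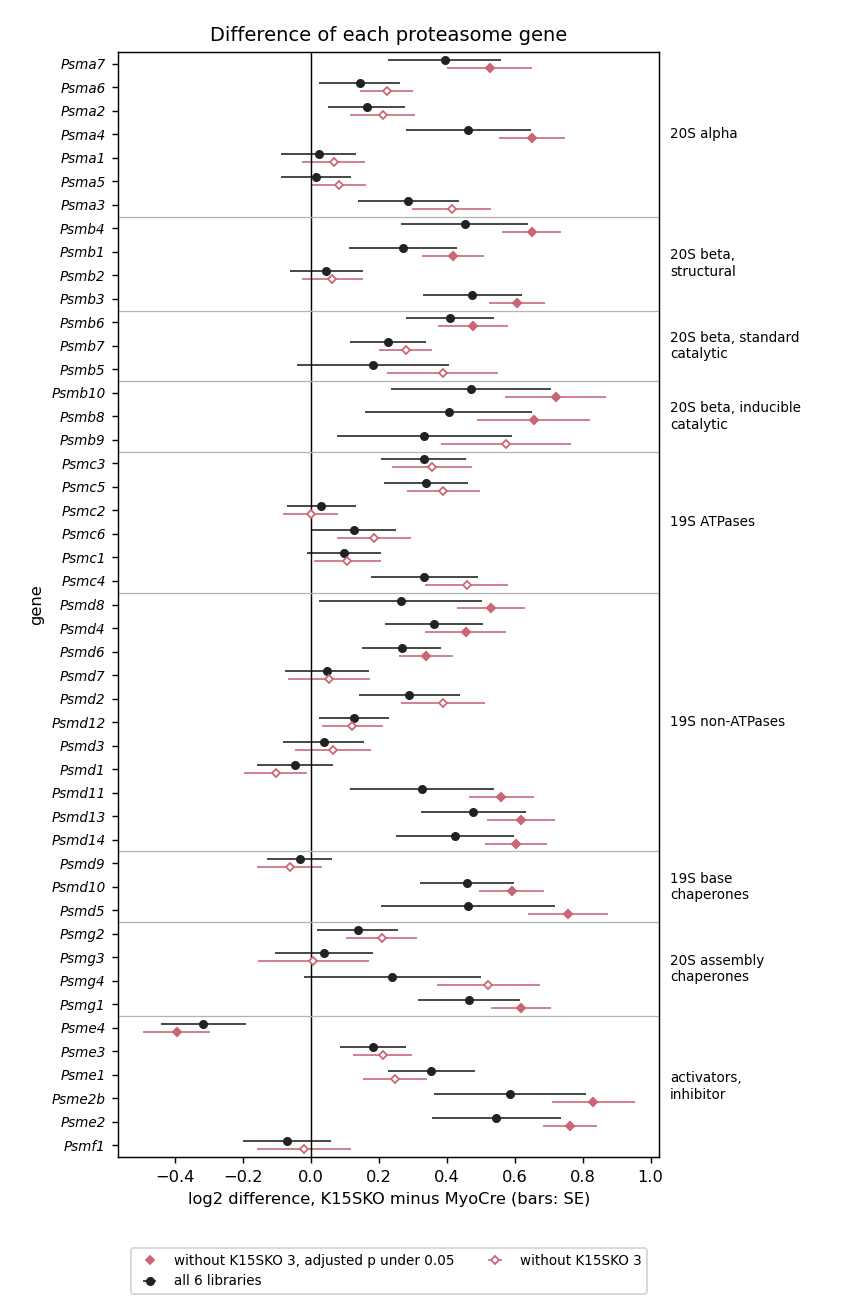
Log2 difference of K15SKO minus MyoCre for each of 47 proteasome genes (points; bars are the standard error of the limma fit), from all 6 libraries (black) and without K15SKO 3 (red diamonds, filled where the adjusted p was under 0.05). Most points lie right of 0, 20 diamonds are filled, and Psme4 lies at −0.32 with all libraries.

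The catalytic sites of the standard proteasome are made by Psmb5 (chymotrypsin-like), Psmb6 (caspase-like) and Psmb7 (trypsin-like). Psmb6 read 208, 201 and 222 FPKM across MyoCre and 318, 271 and 255 FPKM across K15SKO. All K15SKO values lay above the MyoCre values (log2 difference 0.41, SE 0.13, limma adjusted p = 0.272). Psmb7 read 204, 210.5 and 220.3 FPKM across MyoCre and 253, 261 and 230.3 FPKM across K15SKO, again without overlap (log2 difference 0.23, SE 0.11, limma adjusted p = 0.336). Psmb5 read 132, 115 and 141 FPKM across MyoCre and 146, 197 and 110.1 FPKM across K15SKO. Its K15SKO values reach past the MyoCre range on both sides, and the difference of 0.18 (limma adjusted p = 0.645) became −0.028 without K15SKO 2.

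Psmb5 has a near-identical copy, Gm3375, which matches 88.5% of the Psmb5 transcript at 98.9% identity. Gm3375 itself read 38.6, 35.3 and 37.0 FPKM across MyoCre and 90.9, 49.1 and 67.0 FPKM across K15SKO. Together they gave 171, 151 and 178 FPKM and 237, 246 and 177 FPKM. The authors' counting can have split reads between the copies, so the level of Psmb5 alone is uncertain, and the sum overlaps between the groups through K15SKO 3.

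The inducible subunits Psmb8, Psmb9 and Psmb10 take the places of Psmb5, Psmb6 and Psmb7 in the immunoproteasome, which favours peptides that MHC class I presents. Psmb10 read 7.002, 6.85 and 5.51 FPKM across MyoCre and 12.7, 9.95 and 6.29 FPKM across K15SKO. Psmb8 read 2.55, 3.76 and 2.44 FPKM across MyoCre and 5.22, 4.99 and 2.63 FPKM across K15SKO. Psmb9 read 1.86, 1.80 and 1.03 FPKM across MyoCre and 2.53, 3.03 and 1.29 FPKM across K15SKO. For all 3 genes K15SKO 1 and 2 lay above every MyoCre library and K15SKO 3 lay within the MyoCre range. The log2 differences were 0.47, 0.41 and 0.33 for Psmb10, Psmb8 and Psmb9, with limma adjusted p of 0.340, 0.402 and 0.477. Without K15SKO 3 they were 0.72 for Psmb10 and 0.66 for Psmb8 (limma adjusted p = 0.0281 and 0.0449), while Psmb9 was not called (limma adjusted p = 0.0833). Without K15SKO 2 they were 0.43, 0.29 and 0.17 for Psmb10, Psmb8 and Psmb9 (limma adjusted p = 0.527, 0.635 and 0.766). Without K15SKO 1 they were 0.27, 0.27 and 0.26 (limma adjusted p = 0.646, 0.711 and 0.757). Psmb9 overlaps Tap1, Psmb8 overlaps Gm20496 and Psmb10 overlaps Gm16156, all on the opposite strand. Without strand, reads from bases that both genes share cannot be told apart. The standard gene Psmb7 likewise overlaps Nek6 on the opposite strand, and other members overlap annotated genes too.

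**Figure D3:**
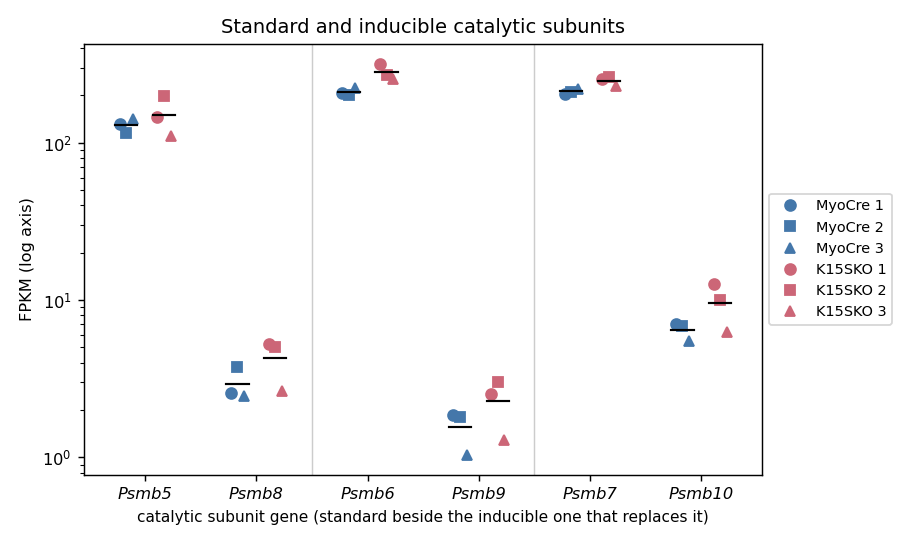
FPKM (log axis) of the standard catalytic subunit genes Psmb5, Psmb6 and Psmb7, each beside the inducible gene that replaces it, in MyoCre (blue) and K15SKO (red) libraries 1 (circles), 2 (squares) and 3 (triangles); black lines are group means, n = 3 each. The standard genes lie between 110.1 and 318 FPKM and the inducible ones between 1.03 and 12.7 FPKM.

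The inducible genes made up 2.05%, 2.30% and 1.52% of the summed FPKM of the 6 catalytic genes across MyoCre, and 2.77%, 2.41% and 1.69% across K15SKO. K15SKO 1 and 2 lay above every MyoCre share, and K15SKO 3 lay among them. By site, Psmb8 stood at 2.31% ± 0.829 in MyoCre and 2.84% ± 0.654 in K15SKO, as a percentage of Psmb5 (SD, n = 3 each). Psmb9 stood at 0.751% ± 0.248 in MyoCre and 0.807% ± 0.308 in K15SKO relative to Psmb6, and Psmb10 at 3.06% ± 0.494 in MyoCre and 3.85% ± 1.14 in K15SKO relative to Psmb7. The differences of the log2 ratios, with the pseudocount of 1 added to both genes, were 0.22, −0.08 and 0.24 for these pairs. Exact two-sided permutation tests gave p = 0.5, 0.9 and 0.4 (0.75, 0.9 and 0.75 after Benjamini-Hochberg adjustment over the 3 pairs), where 3 against 3 libraries allow 0.1 at the smallest. The ratios of the groups overlapped for all 3 pairs. With Gm3375 added to Psmb5, the difference for Psmb8 was 0.018.

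**Figure D4:**
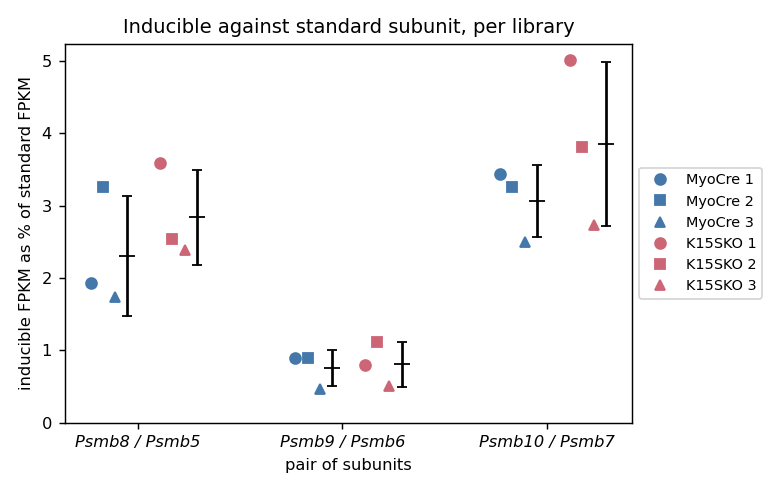
FPKM of each inducible subunit gene as a percentage of the FPKM of the standard gene it replaces, per library (symbols as in the plot of the catalytic subunits), with the group mean and SD beside the points (n = 3). The groups overlap for all 3 pairs, and the highest value is Psmb10 at 5.004% of Psmb7 in K15SKO 1.

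Macrophages carry immunoproteasome subunits, and their markers were high in the same libraries. Of 16 macrophage markers 13 were tested, and all 13 had a positive difference. At an unadjusted p under 0.05, 2 (15.4%) were higher, where 8.43% of all genes were. The summed level of the macrophage markers was 52.4 to 63.7 FPKM in MyoCre and 443, 247 and 49.6 FPKM in K15SKO. Dendritic cell markers summed to 65.0 to 78.6 FPKM and to 179.8, 140.2 and 51.2 FPKM in the same order. Of these 8 markers only 4 were tested: Cd74, H2-Aa, H2-Ab1 and H2-Eb1. Whether their transcripts came from dendritic cells or from macrophages cannot be told apart. Markers of lymphocytes were near 0: 0 of 13 reached the limit of 1 FPKM, with a sum of at most 1.15 FPKM in any library. Markers of regenerating fibres were at 13.7 to 24.0 FPKM in MyoCre and 83.3, 69.0 and 21.3 FPKM in K15SKO. Of the 7 tested, 6 (85.7%) were higher in all K15SKO libraries without overlap, where 13.4% of all genes were. The same 6 were higher at an unadjusted p under 0.05, where 8.43% of all genes were. The other marker, Myod1, read 17.7, 6.99 and 6.75 FPKM across MyoCre and 11.9, 7.12 and 9.35 FPKM across K15SKO. Adipocyte markers, at 411 to 1064 FPKM in MyoCre, were at 181, 118 and 236 FPKM in K15SKO, low in K15SKO 3 too. Endothelial markers were at 80.0 to 100.5 FPKM in MyoCre and 56.2, 67.3 and 116 FPKM in K15SKO. Fibroblast markers summed to 204 to 238 FPKM in MyoCre and 358, 250.4 and 183 FPKM in K15SKO. Among them the collagen genes Col1a1 and Col3a1 were high in K15SKO 1 and 2: Col1a1 read 6.85, 5.56 and 5.51 FPKM across MyoCre and 55.6, 19.6 and 5.89 FPKM across K15SKO, and Col3a1 read 14.8, 14.5 and 14.6 FPKM across MyoCre and 96.8, 56.5 and 11.97 FPKM across K15SKO. The fibroblast gene Dcn, by contrast, was lower in every K15SKO library, at 89.6, 97.7 and 121 FPKM against 147, 149 and 131 FPKM. These genes were named after their values were seen. The part of each of these in the proteasome values was not tested, and in bulk tissue fewer cells of a type and less RNA per cell cannot be told apart.

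**Figure D5:**
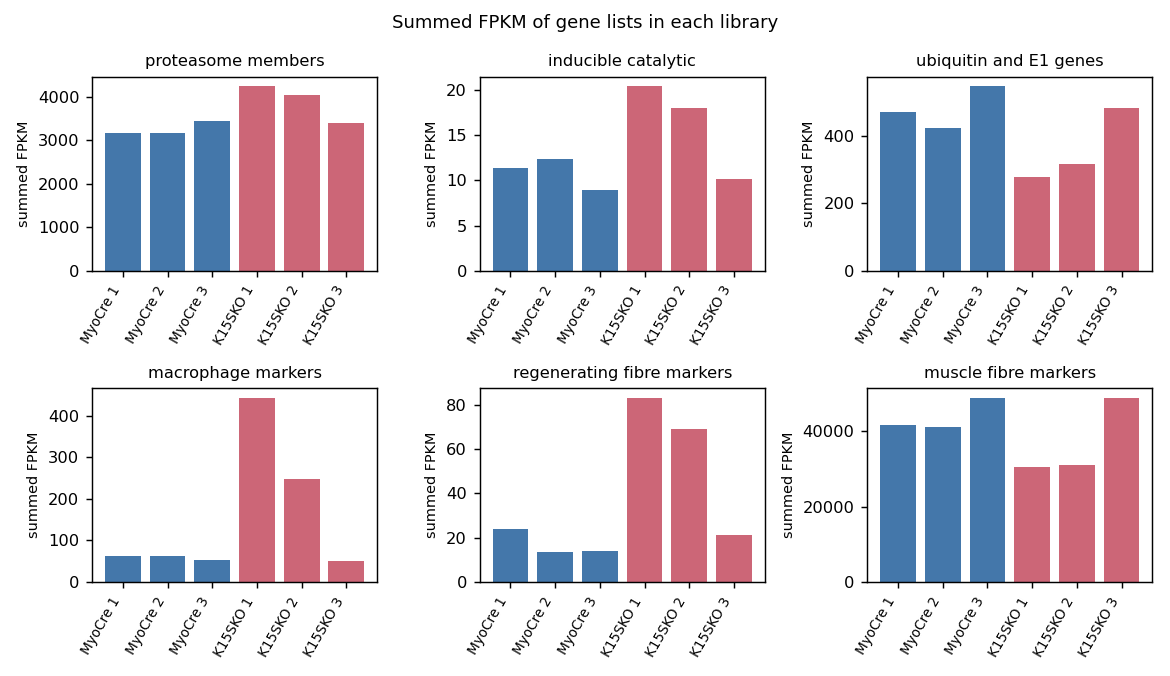
Summed FPKM of 6 gene lists in each library (bars from 0; MyoCre blue, K15SKO red). Proteasome, macrophage and regenerating fibre sums are highest in K15SKO 1 and 2, where the ubiquitin and muscle fibre sums are lowest.

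The alpha ring gates the entrance of the core. Of its 7 genes, 1 (14.3%), Psma4, was higher at an unadjusted p under 0.05, where 8.43% of all genes were. The median difference of the 7 was 0.16. Psma7 read 118, 116 and 127 FPKM across MyoCre and 196, 154 and 131 FPKM across K15SKO, without overlap (log2 difference 0.39, SE 0.17, limma adjusted p = 0.303). Psma4 read 74.4, 75.98 and 83.1 FPKM across MyoCre and 129.9, 116 and 82.6 FPKM across K15SKO, where K15SKO 3 lay inside the MyoCre range. Psma3 read 15.4, 17.5 and 14.7 FPKM across MyoCre and 23.1, 19.8 and 16.2 FPKM across K15SKO. Psma2, Psma6, Psma1 and Psma5 had differences of 0.16, 0.14, 0.02 and 0.01. Psma4 shares sequence with Gm6542, and Psma5 with Gm8394 and Gm12989, so their levels are uncertain.

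The non-catalytic beta subunits complete the inner rings. Psmb3 read 81.0, 77.2 and 83.3 FPKM across MyoCre and 127, 119 and 93.2 FPKM across K15SKO, without overlap (log2 difference 0.47, SE 0.15, limma adjusted p = 0.272). Psmb4 read 116, 112 and 115 FPKM across MyoCre and 191, 169.6 and 119 FPKM across K15SKO, also without overlap, though K15SKO 3 lay close above MyoCre. Psmb1 read 116, 124 and 123 FPKM across MyoCre and 173, 152 and 119 FPKM across K15SKO. Psmb2 stood at 97.4 ± 1.78 FPKM in MyoCre and 101 ± 7.20 FPKM in K15SKO (SD, n = 3 each), a difference of 0.05. Psmb3 has a copy, Gm4950, and both together summed to 94.1 ± 4.53 FPKM in MyoCre and 133 ± 20.7 FPKM in K15SKO (SD, n = 3 each).

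DNA before the starts of 4 members is shown: Psmb5 and Psmb6, which make catalytic sites, Psmb3, which had the smallest p of the beta subunits, and Psme4, the single member lower at an unadjusted p under 0.05. The stretches are from RefSeq on GRCm38.p6, read 5′ to 3′ on the strand of the gene, without bases inside annotated exons. They cover chr14:54618023-54618245 (minus strand) for Psmb5, chr11:70525107-70525356 (plus strand) for Psmb6, chr11:97703184-97703398 (plus strand) for Psmb3 and chr11:30771525-30771725 (plus strand) for Psme4. Capitals mark matches on either strand to the core of the antioxidant response element, TGANNNNGC, which NFE2L1 and NFE2L2 bind, or to the interferon-stimulated response element core, which is GAAA, any 2 bases and GAAA.
Psmb5: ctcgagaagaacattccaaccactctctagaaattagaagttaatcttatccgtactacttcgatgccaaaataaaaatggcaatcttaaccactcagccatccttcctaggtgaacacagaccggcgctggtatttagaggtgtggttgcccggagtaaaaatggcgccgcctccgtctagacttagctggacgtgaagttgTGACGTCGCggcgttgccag
Psmb6: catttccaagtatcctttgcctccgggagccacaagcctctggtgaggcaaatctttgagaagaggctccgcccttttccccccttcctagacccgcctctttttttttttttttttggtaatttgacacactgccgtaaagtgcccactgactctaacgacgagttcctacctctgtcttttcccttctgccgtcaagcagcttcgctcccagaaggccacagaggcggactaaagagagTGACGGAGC
Psmb3: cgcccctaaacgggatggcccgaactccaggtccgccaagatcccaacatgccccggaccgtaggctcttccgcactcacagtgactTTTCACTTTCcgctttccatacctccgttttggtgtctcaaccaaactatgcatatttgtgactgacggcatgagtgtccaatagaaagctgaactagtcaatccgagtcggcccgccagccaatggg
Psme4: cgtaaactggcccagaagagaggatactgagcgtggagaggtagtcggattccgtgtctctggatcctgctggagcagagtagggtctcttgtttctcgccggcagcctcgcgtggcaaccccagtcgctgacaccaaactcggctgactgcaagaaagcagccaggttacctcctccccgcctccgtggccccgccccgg
Psmb5 and Psmb6 each hold 1 antioxidant core, Psmb3 holds 1 interferon core in the stretch shown, and Psme4 holds neither. Psmb3 also has 1 antioxidant core, 10 bases before the start, among the 35 bases left out there.

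Of the 47 members, 40 matched a RefSeq promoter entry, with 43 starts. Over the 250 bases before each start, both strands searched, the antioxidant core was found at 37.2% of these starts and at 35.2% of 32851 starts of all genes. The interferon core was found at 6.98% and 2.98%, in Psmb3, Psmd4 and Psmd9 among the members. The STAT core TTCNNNGAA was found at 4.65% and 7.02%, and CACCC, a box that Krüppel-like factors bind, at 41.9% and 52.0%. Matches to different motifs may overlap, and a match describes letters, not a site.

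The cap has 6 ATPases, which unfold the substrate. Psmc3 read 116, 109 and 137 FPKM across MyoCre and 152, 156 and 146 FPKM across K15SKO, without overlap (log2 difference 0.33, SE 0.13, limma adjusted p = 0.288). Psmc5 read 95.7, 88.5 and 106 FPKM across MyoCre and 132, 122 and 114 FPKM across K15SKO, without overlap (log2 difference 0.34, SE 0.12, limma adjusted p = 0.283). K15SKO 3 stood above MyoCre for both. Psmc4 read 60.005, 55.4 and 69.6 FPKM across MyoCre and 88.9, 80.8 and 65.1 FPKM across K15SKO, with overlap through K15SKO 3. Psmc1, Psmc2 and Psmc6 had differences of 0.097, 0.03 and 0.13. Without K15SKO 3, limma called 0 of the 6 ATPase genes and 6 of the 11 non-ATPase genes, all higher. In that fit 10.8% of all genes were called higher and 12.8% lower. Psmc4, Psmc5 and Psmc3 then differed by 0.46, 0.39 and 0.36 (limma adjusted p = 0.0504, 0.0542 and 0.0833). The non-ATPase gene Psmd4, which was called, differed by 0.46 (limma adjusted p = 0.0486). Without K15SKO 1 or 2 limma called 0 of either group. The difference between the shares of the ATPase and non-ATPase genes was not tested.

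The non-ATPases of the cap include the ubiquitin receptors and the deubiquitinase that strips the tag. Of 11 genes, 3 (27.3%) were higher at an unadjusted p under 0.05, where 8.43% of all genes were: Psmd13, Psmd4 and Psmd14. Psmd13 is a lid subunit. Psmd13 read 40.1, 39.7 and 45.9 FPKM across MyoCre and 67.2, 62.4 and 48.1 FPKM across K15SKO (log2 difference 0.48, SE 0.15, limma adjusted p = 0.273). Psmd14 read 36.4, 41.1 and 41.0 FPKM across MyoCre and 61.0, 60.001 and 41.3 FPKM across K15SKO, so K15SKO 3 lay barely above MyoCre for this deubiquitinase. Psmd4 read 106, 102 and 127 FPKM across MyoCre and 149.7, 156 and 126 FPKM across K15SKO, and K15SKO 3 lay inside the MyoCre range for this ubiquitin receptor.

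Psmd8 and Psmd11 are lid subunits for which K15SKO 3 lay below every MyoCre library. Psmd8 read 222, 187 and 203 FPKM across MyoCre and 301, 288 and 169 FPKM across K15SKO. Psmd11 read 52.1, 56.0 and 61.0 FPKM across MyoCre and 84.1, 82.6 and 50.9 FPKM across K15SKO. Psmd6, Psmd2 and Psmd12 had differences of 0.27, 0.29 and 0.13. Psmd1, Psmd3 and Psmd7 had differences of −0.05, 0.04 and 0.05, each smaller than its standard error.

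The base chaperones Psmd5, Psmd9 and Psmd10 (gankyrin) help the ATPase ring assemble. Psmd10 read 5.79, 6.83 and 6.32 FPKM across MyoCre and 10.2, 9.83 and 7.35 FPKM across K15SKO, without overlap (log2 difference 0.46, SE 0.14, limma adjusted p = 0.272). This was the smallest p of the 47. Psmd5 read 5.66, 6.44 and 5.17 FPKM across MyoCre and 11.1, 9.71 and 5.16 FPKM across K15SKO, and K15SKO 3 was the lowest of all libraries. Psmd9 stood at 9.81 ± 0.812 FPKM in MyoCre and 9.54 ± 0.367 FPKM in K15SKO (SD, n = 3 each), a difference of −0.03 that was 0.027 without MyoCre 3.

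The chaperones Psmg1 to Psmg4 build the alpha ring. Psmg1 read 7.42, 8.36 and 8.27 FPKM across MyoCre and 12.6, 13.1 and 9.03 FPKM across K15SKO, without overlap (log2 difference 0.46, SE 0.15, limma adjusted p = 0.274). Psmg2 read 28.0, 30.8 and 26.4 FPKM across MyoCre and 31.1, 34.8 and 28.3 FPKM across K15SKO. Psmg4 read 11.2, 8.59 and 9.68 FPKM across MyoCre and 16.3, 12.8 and 7.60 FPKM across K15SKO, so the K15SKO values of Psmg4 enclose those of MyoCre. Psmg3 differed by 0.04. Pomp, which helps the beta ring assemble, lies outside the name pattern and was named after its values were seen. Pomp read 86.8, 77.2 and 75.4 FPKM across MyoCre and 124, 124 and 81.6 FPKM across K15SKO (limma adjusted p = 0.310).

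Activators open the core without the cap. Psme1 and Psme2 form PA28, an interferon-inducible activator. Psme1 read 19.03, 20.2 and 19.3 FPKM across MyoCre and 25.0, 21.8 and 29.5 FPKM across K15SKO, without overlap (log2 difference 0.35, SE 0.13, limma adjusted p = 0.284), and K15SKO 3 was the highest library. Psme2 read 6.998, 6.62 and 6.74 FPKM across MyoCre and 12.5, 11.9 and 7.42 FPKM across K15SKO, without overlap (log2 difference 0.55, SE 0.19, limma adjusted p = 0.279). Psme2b read 15.1, 16.5 and 17.8 FPKM across MyoCre and 33.0, 27.2 and 17.6 FPKM across K15SKO. Psme2b is 99.4% identical to Psme2 over the aligned transcript, so reads can be split between them, and both together summed to 23.2 ± 1.22 FPKM in MyoCre and 36.6 ± 10.5 FPKM in K15SKO (SD, n = 3 each).

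Psme4 (PA200), an activator linked to the breakdown of acetylated histones, had the opposite sign. Psme4 read 80.5, 81.0 and 92.6 FPKM across MyoCre and 62.0, 66.1 and 75.6 FPKM across K15SKO. All K15SKO values lay below the MyoCre values (log2 difference −0.32, SE 0.13, limma adjusted p = 0.294). Without K15SKO 3 the difference was −0.396, without K15SKO 2 −0.300 and without K15SKO 1 −0.25 (limma adjusted p = 0.0431, 0.460 and 0.567). Psme3, the nuclear activator, did not overlap either, with a difference of 0.18. The inhibitor Psmf1 stood at 8.78 ± 1.2003 FPKM in MyoCre and 8.29 ± 0.904 FPKM in K15SKO (SD, n = 3 each), a difference of −0.07 that was 0.053 with array weights and 0.017 without MyoCre 3.

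The genes of ubiquitin and its activating enzymes supply the tag. The 7 genes tested with this list include Ubl4a, which is only ubiquitin-like. Of the 7, 1 (14.3%) was higher at an unadjusted p under 0.05, where 8.43% of all genes were. At that p 0 were lower, where 8.12% of all genes were. The higher gene was Rps27a, which encodes ubiquitin fused to a ribosomal protein. Rps27a read 3.33, 5.14 and 5.96 FPKM across MyoCre and 8.61, 7.92 and 6.53 FPKM across K15SKO (log2 difference 0.601, SE 0.20, limma adjusted p = 0.276). Ubb read 227, 218 and 286 FPKM across MyoCre and 109, 137 and 236 FPKM across K15SKO (log2 difference −0.66, SE 0.29, limma adjusted p = 0.310). K15SKO 1 and 2, which had the highest proteasome sums, had the lowest levels of Ubb, which encodes a chain of ubiquitin units. Uba1, the main ubiquitin-activating enzyme, stood at 40.8 ± 2.62 FPKM in MyoCre and 47.6 ± 3.21 FPKM in K15SKO (SD, n = 3 each).

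Of 20 proteasome partners outside the name pattern, 0 were higher and 3 lower at an unadjusted p under 0.05. Of all genes, 8.43% were higher and 8.12% lower. At an adjusted p under 0.05 limma called 0 of the 20, where 0.0517% of all genes were called. Zfand5 read 198, 239 and 199.6 FPKM across MyoCre and 77.2, 105 and 184 FPKM across K15SKO, without overlap (log2 difference −0.88, SE 0.31, limma adjusted p = 0.281); it encodes a proteasome activator. The ubiquitin ligases Ube3a and Ube3c had differences of −0.62 and −0.33, and the shuttle factor Ubqln2 of −0.505. Of 16 regulators of proteasome genes, 1 (6.25%) was higher and 2 lower at an unadjusted p under 0.05, where 8.43% and 8.12% of all genes were. At an adjusted p under 0.05 limma called 0 of the 16. Foxo1 and Foxo3, transcription factors of muscle atrophy, had differences of −0.696 and −0.41 (limma adjusted p = 0.273 and 0.301). Stat3 read 11.2, 11.3 and 14.1 FPKM across MyoCre and 18.98, 17.8 and 14.6 FPKM across K15SKO (log2 difference 0.45, SE 0.14, limma adjusted p = 0.272), and Mafg, a partner of NFE2L1, differed by −0.36.

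Of 21 tested genes of interferon signalling and antigen presentation, 1 (4.76%) was higher and 1 lower at an unadjusted p under 0.05. Of all genes, 8.43% were higher and 8.12% lower. At an adjusted p under 0.05 limma called 0 of the 21. H2-T23 read 4.99, 3.82 and 4.34 FPKM across MyoCre and 8.95, 16.7 and 5.17 FPKM across K15SKO (log2 difference 0.94, SE 0.36, limma adjusted p = 0.290); it is a non-classical MHC class I gene. Jak2 read 19.4, 17.6 and 17.6 FPKM across MyoCre and 9.22, 9.48 and 17.6 FPKM across K15SKO, with K15SKO 3 just below the lowest MyoCre value for this kinase of interferon receptors. The receptor chain Ifngr1 had a difference of −0.303. The median difference of these 21 genes was 0.14, against −0.02 over all genes tested.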

How the data were processed

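Quadriceps RNA was sequenced in 6 libraries. The authors deposited a matrix of FPKM values; the submitters' processing notes name STAR, Cufflinks, Cuffdiff and mm10, while the sources used here give no version, annotation or strandedness. The unit was inferred from these tools and the range of values. Columns were matched to samples by their labels, and 0 columns had no sample. FPKM keep no counts, so absolute depth is unknown.

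The 11607 genes averaging 1 FPKM or more entered limma 3.58.1 (R 4.3.3; log2 of FPKM plus a pseudocount of 1, eBayes with trend, two-sided, Benjamini-Hochberg, threshold 0.05), which was tested on simulated data. Changes of low genes are understated on this scale. Ratios were compared by exact permutation tests (scipy 1.17.1). Copies (BLAST 2.17.0; at least 95% identity over at least 50% of the transcript; 9 members) and overlaps were taken from GENCODE M21 on GRCm38, the assembly called mm10, where all 47 members matched by ID.

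Members and lists were chosen with earlier results of these data known. Named were Klf15, Psmb5 to Psmb10, in each structural group the most and the least abundant gene and up to 3 with the smallest p, and up to 4 genes of each other list; other members are given to account for all 47, and 2 genes of the other lists are not reported here. Same-numbered libraries deviated from their group means with correlations of 0.002, 0.085 and 0.094. Alternatives were a pseudocount of 0.1, no filter or one at 5 FPKM, median-of-ratios and quantile scaling, robust eBayes, array weights, the replicate block and each library left out. Added after seeing the data were a fit without genes at 0 in a whole group, and Gm3375 added to Psmb5.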

Additional observations from a re-analysis of the deposited data

How the results depend on the processing

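Over the whole table limma called 6 genes. It called 3 with no filter, 3 with the replicate block, 2398 with array weights and 3 to 2743 with each library left out, the most without K15SKO 3. Leaving out genes listed at 0 in a whole group, which was added after the data were seen, limma called 0, and 8.54% of genes were higher at an unadjusted p under 0.05. Of the proteasome genes 0 were called, against 17 with array weights and 0 to 20 with each library left out. The count higher at an unadjusted p under 0.05 was 13, against 28 with array weights, 8 with the replicate block and 1 to 29 with each library left out: 1 (2.13%) without MyoCre 1, 2 (4.26%) without MyoCre 2, 3 (6.38%) without K15SKO 1, 3 (6.38%) without K15SKO 2 and 29 (61.7%) without K15SKO 3. Of all genes 3.72%, 3.68%, 4.36%, 6.16% and 17.8% were higher in these fits, 20.3% with array weights and 7.49% with the replicate block. The members' share was thus below that of all genes without MyoCre 1 and close to it without MyoCre 2, K15SKO 1 or K15SKO 2. Without MyoCre 3, 9 members (19.1%) were higher, where 5.38% of all genes were, so their share stayed above that of all genes. The count lower at that p was 1, and 0 to 1 with each library left out. The median difference of the proteasome genes lay between 0.20 and 0.39 in all alternatives run. The replicate block changed no adjusted call of a named gene. The correlations of same-numbered libraries were all under 0.1, and not every library correlated best with its own number. The ratio of Psmb9 to Psmb6 went from −0.08 to 0.069 with a pseudocount of 0.1, and from −0.27 to 0.098 with each library left out, above 0 without MyoCre 1, MyoCre 2 or K15SKO 3. Genes near 0 changed sign: Psmf1 was 0.053 with array weights and −0.16 to 0.017 with each library left out, Psmd9 −0.068 to 0.027, and Psmb5 −0.028 to 0.39. Psma1, Psma5, Psmb2, Psmc2, Psmd3 and Psmg3, all under 0.05, also changed sign in at least 1 alternative, at −0.047 to −0.0012. The cause of these changes was not tested. The counting error of the rare inducible subunits is unknown, since FPKM keep no read counts, and 3 libraries a group limit the precision.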
